A study of Arabidopsis thaliana with 4 samples.

Results

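The auxin carriers described here are 7 Arabidopsis thaliana genes, taken by locus identifier from a table of 37686 genes: the 4 AUX/LAX genes AUX1 (AT2G38120), LAX1 (AT5G01240), LAX2 (AT2G21050) and LAX3 (AT1G77690), and the 3 ABCB genes ABCB1 (AT2G36910), ABCB4 (AT2G47000) and ABCB19 (AT3G28860). Transcripts were measured by RNA sequencing in the wild-type accession Col-0. Seedlings were 12 days old and had grown at 22 °C in cycles of 16 h light and 8 h darkness. Leaves were detached with part of the petiole, and the wounded end was collected either before culture (time 0) or after 2 days of culture on B5 medium with sucrose in the dark, with 2 libraries in each group. Time since wounding, darkness, medium and plant age differ between the groups at once and cannot be told apart. Levels are in TPM as the authors deposited them, a share of all transcripts scaled to 1000000 per library, which is already divided by transcript length and so can be compared between genes. Depth is unknown from such values. The labels do not say that replicates are separate plants or cultures, and p-values may therefore reflect technical spread alone.

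Auxin enters plant cells partly through AUX/LAX proteins, which are plasma membrane symporters that carry the auxin anion in with protons. ABCB proteins are ATP-driven transporters of the plasma membrane that move auxin mostly out of cells, and together with the PIN exporters they set the direction and amount of auxin flow. In a detached leaf, auxin made in the blade travels towards the cut end, where new roots can start near the veins. AUX1 is best known for root gravitropism, LAX1 acts with its relatives in leaf arrangement at the shoot apex, LAX2 acts in vein formation, and LAX3 acts in the cells that overlie an emerging lateral root. ABCB1 and ABCB19 carry auxin along stems and roots, and ABCB4 is known from the root epidermis, where it can work in both directions.

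After 2 days of culture AUX1, LAX1 and LAX2 were lower than at time 0, ABCB1 and ABCB4 were higher, and LAX3 and ABCB19 lay closest to their starting levels. The fall of LAX2 was 3.77-fold and the rise of ABCB4 11.1-fold on the TPM scale. All 7 genes passed the expression filter of a mean of at least 1 TPM. With limma, which fits log2(TPM + 1) across all 19078 tested genes, 3 of the 7 were called higher (ABCB1, ABCB4 and LAX3) and 3 lower (AUX1, LAX1 and LAX2) at an adjusted p below 0.05, and ABCB19 did not pass. Among all tested genes 39.2% were called higher and 29.5% lower, 68.8% together, so a share of 6 in 7 is not far from the background. The time 0 and 2-day values did not overlap in any of the 7 genes, as in 86% of all tested genes. The balance of calls over all tested genes depended on scaling. Of the called genes, 57.0% were higher with TPM as deposited and 47.0% after quantile normalization. That step moved the median log2 difference of all tested genes from 0.09 to -0.06. None of the 7 carriers changed direction under it, although LAX3 lost its call and ABCB19 gained one.

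**Figure D1:**
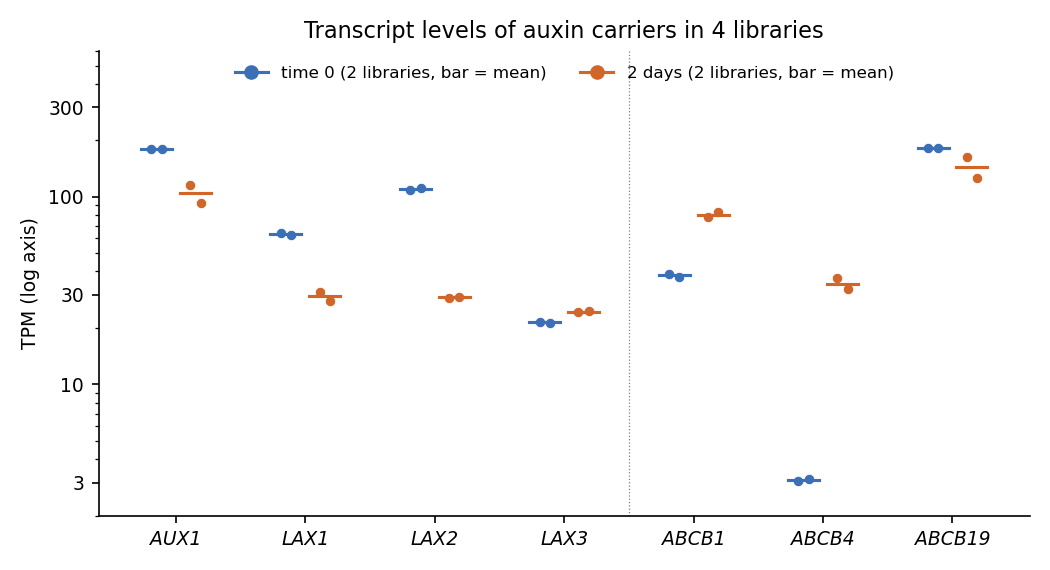
TPM on a log axis for the 7 carriers in each library, time 0 in blue and 2 days in orange, with 2 points per group and a short bar at their mean. The time 0 points lie almost on each other, ABCB4 starts at 3.07 and 3.15 TPM and ends at 36.73 and 32.11 TPM, and the 2-day points of AUX1 and ABCB19 are spread most.

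AUX1 was the most abundant importer in all 4 libraries. Its level was 178.99 and 180.72 TPM before culture and 115.99 and 93 TPM after it. Both 2-day values were below both time 0 values, and the 2-day libraries differed more from each other than the time 0 libraries did. The level fell 1.72-fold, from 179.9 ± 1.22 to 104.5 ± 16.3 TPM (SD, n = 2), with a log2 difference of -0.79 ± 0.11 (SE, limma adjusted p = 0.00199). AUX1 stood above 95.4% of tested genes at time 0 and above 90.7% at 2 days.

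LAX2 changed most of the importers. The time 0 libraries gave 108.67 and 111.08 TPM, and the 2-day libraries gave 29.02 and 29.3 TPM. The replicates were close together in both groups and the groups were far apart. The level fell from 109.9 ± 1.70 to 29.2 ± 0.198 TPM (SD, n = 2), and over the 4 pairs of a time 0 with a 2-day library the fall ranged from 3.71-fold to 3.83-fold. The log2 difference was -1.88 ± 0.05 (SE, limma adjusted p = 1.18e-05), and 3.54% of tested genes had a more negative one. LAX2 stood above 92.0% of tested genes at time 0 and above 68.2% at 2 days.

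LAX1 measured 64.34 and 62.4 TPM before culture and 31.13 and 27.94 TPM after it. Each 2-day value was below each time 0 value, and the fall over the pairs of libraries ranged from 2.00-fold to 2.30-fold. The log2 difference was -1.08 ± 0.07 (SE, limma adjusted p = 0.000137). At 2 days LAX1 and LAX2, which had differed by 73.4% at time 0, had overlapping values.

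LAX3 had the smallest log2 difference of the 7 with all libraries, whereas without 2-day replicate 2 that of ABCB19 was smaller (-0.15 against 0.18). Its level was 21.55 and 21.29 TPM before culture and 24.33 and 24.49 TPM after it, and the small gap between the groups exceeded the gap between replicates. The mean rose from 21.4 ± 0.184 to 24.4 ± 0.113 TPM (SD, n = 2), with a log2 difference of 0.18 ± 0.06 (SE, limma adjusted p = 0.0409) beside a median of 0.09 over all tested genes. The call was lost under 9 of 13 alternatives, with an adjusted p of 0.0344 to 0.390 over all of them. It was lost with each of the 4 libraries left out in turn (adjusted p 0.0579 to 0.211), without the mean-variance trend (0.0585), with the replicate number as a block (0.111), and after quantile normalization (0.144), median of ratios scaling (0.225) and rescaling without organelle and the most abundant genes (0.390).

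Among the ABCB genes, ABCB4 rose from the lowest level of the 7. Its level was 3.07 and 3.15 TPM before culture and 36.73 and 32.11 TPM after it. Replicates agreed closely at time 0 and the 2-day values lay well above both. The rise was 11.1-fold in TPM, between 10.2-fold and 12.0-fold over the pairs of libraries. The log2 difference was 3.10 ± 0.09 (SE, limma adjusted p = 1.43e-05) on the scale of the fit, where the added pseudocount of 1 shrinks the change of a gene that starts this low, and 97.8% of tested genes had a smaller one. ABCB4 moved from above 17.6% of tested genes to above 72.4%. Of its 50-base transcript windows, 2.0% also occur on the opposite strand in another annotated gene, and the strand setting of the counting is not given in the sources used here.

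ABCB1 measured 38.8 and 37.45 TPM before culture and 77.73 and 82.78 TPM after it. The groups were separated by far more than the replicates differed, and the rise over the pairs ranged from 2.00-fold to 2.21-fold. The log2 difference was 1.05 ± 0.06 (SE, limma adjusted p = 8.01e-05).

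ABCB19 was the most abundant of the 7 in every library. The values were 181.7 and 182.93 TPM before culture and 163.8 and 125.59 TPM after it. Both 2-day values were lower, but they lay farther from each other than the higher of them lay from time 0. The log2 difference was -0.34 ± 0.13 (SE, limma adjusted p = 0.0616), which did not pass. This estimate rests on which 2-day library is used: it was -0.15 (adjusted p = 0.0267) without 2-day replicate 2 and -0.53 (adjusted p = 0.00322) without 2-day replicate 1. It also passed after quantile normalization (-0.50, adjusted p = 0.0220), rescaling without organelle and the most abundant genes (-0.47, adjusted p = 0.0234), median of ratios scaling (-0.43, adjusted p = 0.0215) and with the replicate number as a block (-0.34, adjusted p = 0.0364). Over all 13 alternatives the adjusted p ran from 0.00322 to 0.2003, and the direction was down in each.

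**Figure D2:**
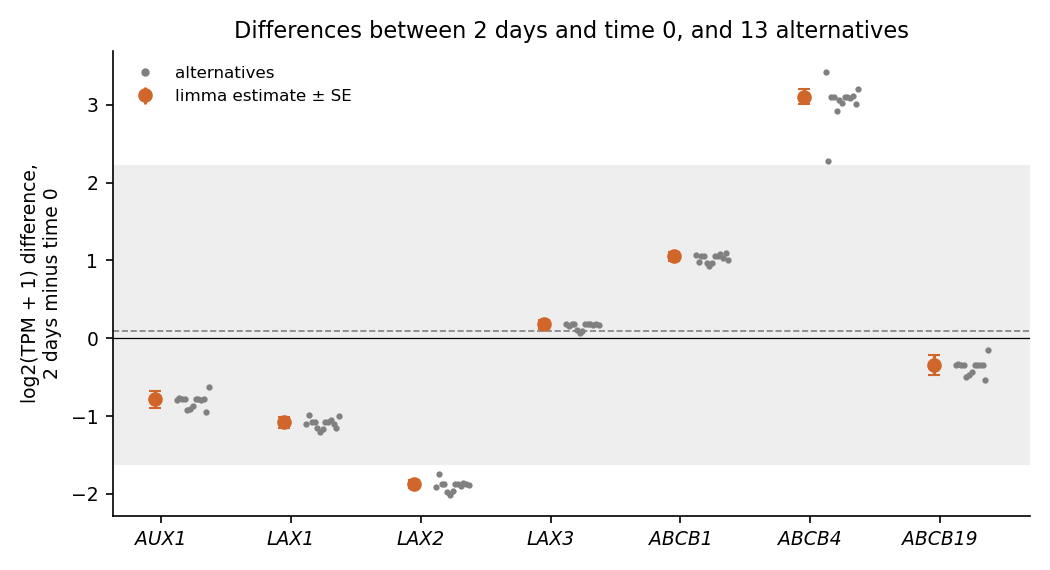
Log2 difference of 2 days minus time 0 on the log2(TPM + 1) scale, with the limma estimate and its SE in orange and the 13 alternatives as grey points beside it; the grey band spans the 5th to 95th percentile of all tested genes (-1.61 to 2.22) and the dashed line is their median (0.09). LAX2 lies below the band, ABCB4 above it, and the other 5 inside it, with LAX3 and ABCB19 nearest to 0.

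The order of the levels changed between the groups. At time 0 it ran from ABCB19 through AUX1, LAX2, LAX1, ABCB1 and LAX3 to ABCB4, and the closest neighbours were ABCB19 and AUX1, whose means differed by 1.37%. At 2 days the order was ABCB19, AUX1, ABCB1, ABCB4, LAX1, LAX2 and LAX3. In 3 neighbouring pairs the means were not separated by more than the sum of their SDs at that time. ABCB19 exceeded AUX1 by 40.2 TPM against summed SDs of 43.3 TPM, ABCB4 exceeded LAX1 by 4.89 TPM against 5.52 TPM, and LAX1 exceeded LAX2 by 0.375 TPM against 2.45 TPM. Within each library, however, ABCB19 stayed above AUX1, by ratios of 1.02 and 1.01 at time 0 and 1.41 and 1.35 at 2 days.

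Taking the importers as a family, their summed level was 373.55 and 375.49 TPM before culture and 200.47 and 174.73 TPM after it. The mean thus went from 374.5 ± 1.37 to 187.6 ± 18.2 TPM (SD, n = 2). The 3 ABCB genes summed to 223.57 and 223.53 TPM at time 0 and to 278.26 and 240.48 TPM at 2 days. Their mean was 16.0% higher at 2 days, and the log2 ratio of 0.21 came to 0.11 without 2-day replicate 1 and to 0.32 without 2-day replicate 2. It was 0.077 after quantile normalization, 0.090 after rescaling without organelle and the most abundant genes and 0.12 after median of ratios scaling. The ratio of AUX/LAX to summed ABCB transcripts was 1.67 and 1.68 before culture and 0.720 and 0.727 after it. This ratio varied less between the 2-day libraries than either sum did. For each of these quantities the groups did not overlap, and the exact two-sided permutation test gave p = 0.333, the smallest value that 2 against 2 libraries allow.

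**Figure D3:**
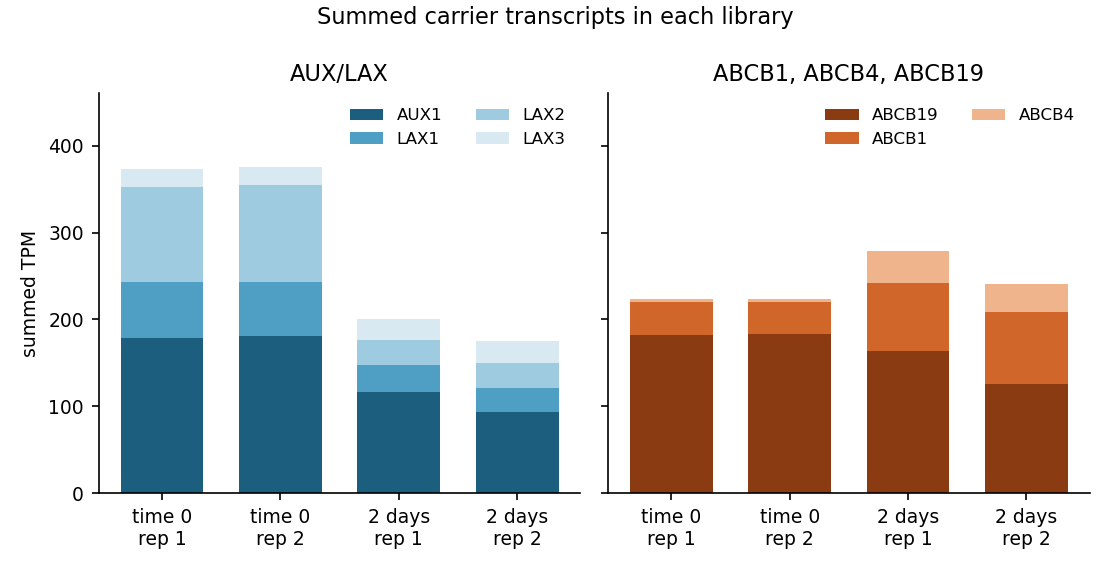
Summed TPM per library, AUX/LAX genes on the left and ABCB1, ABCB4 and ABCB19 on the right, stacked by gene from 0. The importer bars are 373.55 and 375.49 TPM high at time 0 and 200.47 and 174.73 TPM at 2 days, while the ABCB bars range from 223.53 to 278.26 TPM with more ABCB1 and ABCB4 at 2 days.

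The makeup of both families shifted. AUX1 supplied 47.9% and 48.1% of importer transcripts at time 0 and 57.9% and 53.2% at 2 days. The share of LAX2 went from 29.1% and 29.6% to 14.5% and 16.8%, and that of LAX3 from 5.77% and 5.67% to 12.1% and 14.02%. The share of LAX1 was 17.2% and 16.6% before culture and 15.5% and 16.0% after it, the smallest shift in percentage points among the importers. In each library LAX2 exceeded LAX3, by 5.04 and 5.22 times at time 0 and by 1.19 and 1.20 times at 2 days. Among the 3 ABCB genes, ABCB19 supplied 81.3% and 81.8% at time 0 and 58.9% and 52.2% at 2 days. The share of ABCB1 went from 17.4% and 16.8% to 27.9% and 34.4%, and that of ABCB4 from 1.37% and 1.41% to 13.2% and 13.4%. These shares have the same smallest exact permutation p of 0.333. Scaling each library by a single factor leaves them as they are.

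Other genes of the wider ABCB family were measured in the same libraries. Of 18 other ABCB genes, 8 passed the expression filter, with 2 called higher, 1 lower and 5 not past the threshold, and a median log2 difference of 0.01, where 39.2% of all tested genes were called higher and 29.5% lower. The number lower was 4 without 2-day replicate 1, 3 after quantile normalization and 2 under each of the other scalings. With a filter of a mean of at least 5 TPM, 1 was higher, 0 lower and 3 not past the threshold. Without a filter 4 were higher, 1 lower and 13 not past it. The 10 of the 18 genes below the filter of 1 TPM had at most 0.34 TPM in any library. ABCB11, a close relative of ABCB4, measured 0.15 and 0.1 TPM before culture and 3.56 and 2.73 TPM after it (log2 difference 1.87, limma adjusted p = 0.000405). It passed the filter only through its 2-day values, and 4.8% of its windows are shared with its genomic neighbour ABCB12. ABCB2, named after its values were seen, measured 35.63 and 33.95 TPM before culture and 55.91 and 52.17 TPM after it (log2 difference 0.62, limma adjusted p = 0.000638). ABCB14, which acts in auxin transport of the inflorescence stem, measured 3.66 and 3.79 TPM before culture and 1.82 and 1.13 TPM after it (log2 difference -0.95, limma adjusted p = 0.00541). ABCB21, another relative of ABCB4 that can import or export auxin, also named after its values were seen, measured 11.61 and 11.99 TPM before culture and 10.26 and 6.65 TPM after it and did not pass (limma adjusted p = 0.0803). Of all transcripts of the 21 ABCB genes listed here, ABCB1, ABCB4 and ABCB19 together made up 72.8% at time 0 and 72.3% at 2 days. ABCB4 alone made up 1.01% and 9.59%.

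**Figure D4:**
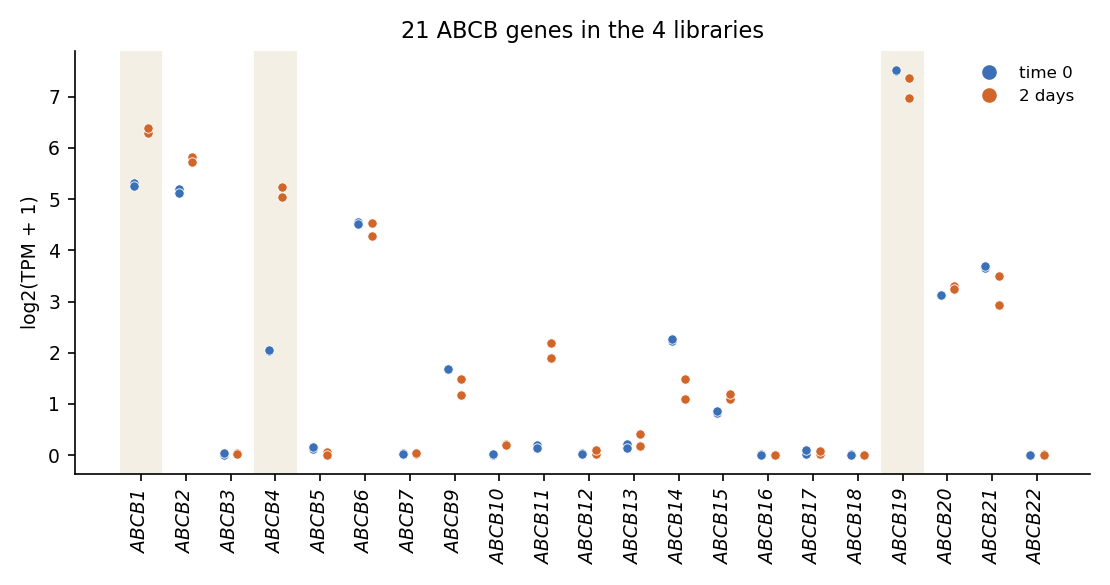
Log2(TPM + 1) of 21 ABCB genes in each library, time 0 in blue and 2 days in orange, with ABCB1, ABCB4 and ABCB19 shaded. ABCB19 is highest in all libraries, ABCB4 and ABCB11 show the widest gaps between groups, and 10 genes lie near 0 throughout.

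Transcripts of proteins that help these carriers reach or work at the membrane were measured as well. AXR4, an endoplasmic reticulum protein needed to deliver AUX1 to the plasma membrane, rose while AUX1 fell. Its level was 20.06 and 22.54 TPM before culture and 85.04 and 84.61 TPM after it, a 3.98-fold rise (log2 difference 1.95 ± 0.07 SE, limma adjusted p = 2.4e-05). TWD1, an immunophilin-like partner of ABCB1 and ABCB19, measured 22.14 and 22.33 TPM before culture and 28.53 and 27.47 TPM after it (log2 difference 0.32, limma adjusted p = 0.00598). The call of TWD1 was lost without time 0 replicate 1 (adjusted p = 0.0612) and without time 0 replicate 2 (adjusted p = 0.0555). BIG, a very large protein needed for polar auxin transport, measured 23.31 and 24.46 TPM before culture and 24.23 and 20.61 TPM after it, and its groups overlapped (limma adjusted p = 0.420).

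Of 48 genes in 5 lists (other ABCB genes, these helpers, PIN and PILS carriers, AGC kinases that act on carriers, and other transporters of auxin or its precursor indole-3-butyric acid, IBA), 34 were tested, with 15 called higher, 10 lower and 9 not past the threshold and a median log2 difference of 0.05. These shares are near the 39.2% higher and 29.5% lower of all tested genes. The pooled counts do not set these genes apart from that background, and no set test was run. Without time 0 replicate 1, 15 did not pass. Of 11 tested PIN and PILS carriers 5 were higher and 5 lower, the latter 3 without time 0 replicate 1. The exporter PIN4 went from 118.76 and 121.17 TPM to 43.1 and 38.85 TPM, and PILS7, a gene of the endomembrane carrier family, from 0.06 and 0.02 TPM to 3.86 and 2.47 TPM. Of 8 AGC kinases 4 were higher and 2 lower. WAG2 (log2 difference 3.88 ± 0.14 SE) and WAG1 (3.77), the latter named after its values were seen, were higher and PID2 (-1.61) lower. All 4 of the other transporters passed, 2 in each direction. Only 1 was called lower without the expression filter, and likewise without the mean-variance trend. The call lost was that of ABCG36 (log2 difference -0.40, limma adjusted p = 0.0333), named after its values were seen. It was lost under 4 of 13 alternatives, which include each time 0 library left out. ABCG37, an exporter of IBA, rose from 0.1 and 0.14 TPM to 39.67 and 31.69 TPM (limma adjusted p = 1.14e-05), and WAT1, a vacuolar auxin transporter, fell from 1719.85 and 1666.49 TPM to 606.76 and 552.09 TPM (limma adjusted p = 4.09e-05). ABCG37, PILS7 and ABCB11 passed the expression filter only through their 2-day values. PID2, at a mean of 0.93 TPM after culture, passed only through its time 0 values of 4.41 and 5.4 TPM. The filter thus adds genes to the counts in both directions.

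Cell wall genes known to act with or downstream of LAX3 in lateral root emergence were called higher in 4 of 4 cases, beside 39.2% of all tested genes, while LAX3 itself differed by 0.18. EXPA17 and EXPA14 passed the expression filter only through their 2-day values, so the count leans upwards. XTH23, a xyloglucan-modifying enzyme, rose from 4.47 and 4.35 TPM to 84.99 and 85.46 TPM. The subtilase AIR3 rose from 1.45 and 1.14 TPM to 28.4 and 32.61 TPM. The expansin EXPA17 was listed at 0 before culture in each library and measured 11.98 and 31.3 TPM after it. The expansin EXPA14 rose from 0.54 and 0.71 TPM to 6.7 and 15.58 TPM. Their adjusted p by limma lay between 5.57e-06 and 0.00156, and the 3 other than EXPA17 were named because the list holds only 4 genes.

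**Figure D5:**
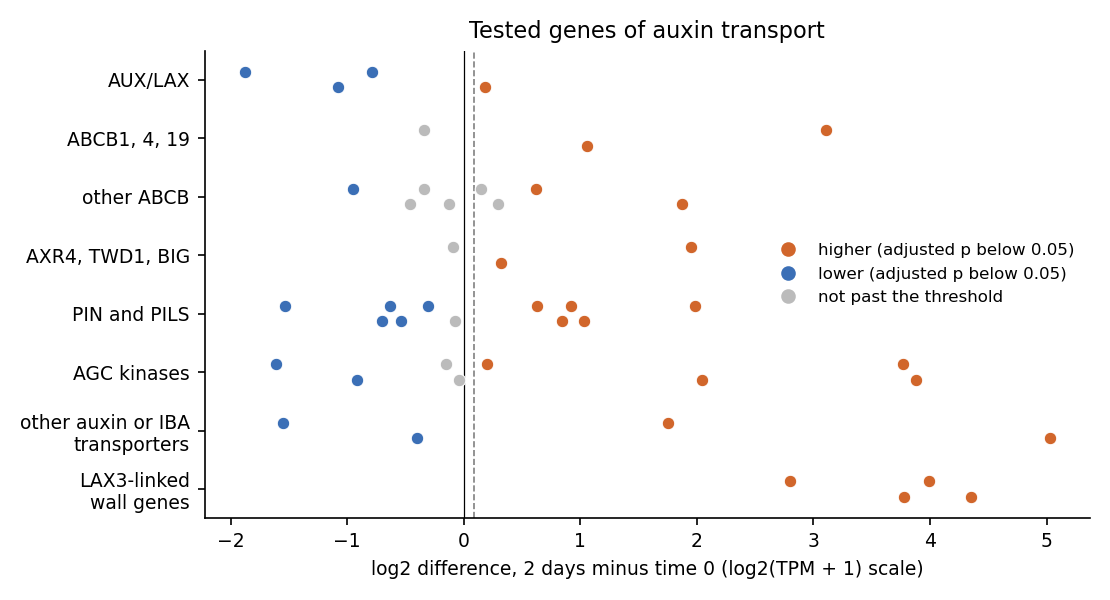
Log2 difference of 2 days minus time 0 for every tested gene of 8 groups, orange where called higher, blue where called lower and grey where not past the threshold, with the median of all tested genes (0.09) dashed. The AUX/LAX genes span -1.88 to 0.18 and the 3 ABCB genes -0.34 to 3.10; LAX2 has the lowest value plotted, and the LAX3-linked wall genes all lie above 2.

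The carriers are expressed in particular cell types. Some but not all markers of the cell types below differed, to be read beside the 39.2% higher and 29.5% lower among all tested genes. In bulk tissue fewer cells of a type and less RNA per cell cannot be told apart. Of 5 xylem markers 2 were lower and 3 not past the threshold. The sum of all 5 was 266.3 and 272.7 TPM at time 0 and 151.4 and 153.1 TPM at 2 days. This drop came mostly from XCP1 (means of 78.8, then 43.4 TPM) and XCP2 (152.1, then 70.5 TPM). Of 3 phloem markers 1 was lower (sums of 179.4 and 171.4, then 141.9 and 138.3 TPM). It was SEOB (means of 79.2, then 35.5 TPM). SUC2 (83.1, then 90.3 TPM) and APL (13.1, then 14.2 TPM) did not pass. Of 3 procambium and cambium markers 2 were higher (sums of 53.8 and 53.5, then 83.0 and 87.4 TPM). Epidermis markers were lower in 2 of 3 (323 and 311.4, then 74.5 and 59.4 TPM), guard cell markers in 2 of 3 (43.4 and 47.3, then 24.5 and 21.9 TPM) and mesophyll markers in 4 of 4 (48389 and 46229, then 10494 and 8397 TPM). The call of the mesophyll marker LHCB1.3 was lost after quantile normalization (limma adjusted p = 0.233) and that of the guard cell marker MYB60 without 2-day replicate 1 (limma adjusted p = 0.0505). Markers of leaf mesophyll, epidermis, guard cells and veins were present in all 4 libraries. Root tip markers WOX5 and SMB passed the expression filter only through their 2-day values and were called higher (list sums of 0 and 0.07, then 5.27 and 9.56 TPM), while PLT1, PLT2 and the shoot meristem genes WUS and CLV3 were listed at 0 in all 4 libraries. The part of these markers in the carriers' differences was not tested.

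For each carrier the gene with the most similar profile was sought among 8140 tested genes with a symbol, as the smallest Euclidean distance in log2(TPM + 1) over the 4 libraries. For ABCB4 it was TSB2, a tryptophan synthase subunit, with 3.54 and 3.8 TPM before culture and 34.14 and 33.36 TPM after it (distance 0.29). For ABCB19 it was GH3.3, an auxin-conjugating enzyme, at a distance of 0.17, with 186.61 and 188.48 TPM at time 0 and 179.8 and 134.32 TPM at 2 days. LAX2 was closest to Tic62 (0.17), AUX1 to the RNA GUT15 (0.20), LAX1 to SVR1 (0.08), LAX3 to GMII (0.08) and ABCB1 to GER2 (0.08). Within a distance of 0.2 there were 36 genes for LAX3, 15 for ABCB1, 8 for LAX1 and 2 for LAX2. There was 1 for ABCB19, and 0 for AUX1 and ABCB4. The nearest gene of AUX1 lay just past this limit, at 0.203, so its count rests on the limit chosen. The distance takes in the level of a gene as well as its pattern over these 4 libraries.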

How the data were processed

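The authors deposited a single table of TPM with 1 column per library, its values rounded to 2 decimals. Per the submitters' processing notes the build was TAIR10, RSEM was version 1.3.2, STAR version 2.7.2b and Trim Galore version 0.5.0. The annotation release and the strand setting are not stated in the labels used. Columns add up to 1000000 within rounding, so depth is unknown and no count test, interval or detection floor was used. The 19078 genes whose mean over the libraries reached 1 TPM were fitted as log2(TPM + 1) in limma 3.58.1 (R 4.3.3). The empirical Bayes step used a mean-variance trend, each gene had 2 residual degrees of freedom, and the Benjamini-Hochberg adjustment ran over all tested genes. Columns were matched to samples by name. Symbols and shared 50-base transcript windows came from RefSeq TAIR10.1, and because the named build is TAIR10 no coordinates or sequences are given. None of the 7 carriers shares a sense window with another gene. The members, the lists and the rule for named genes were chosen with earlier results of these data known. That rule takes all members and helpers, the called gene of each other list that rose most and the one that fell most, and the nearest profile of each member. The limma procedure was tested on simulated data in which far fewer genes changed than were called here. That test does not give the error rate of these calls. Single values were tested by exact permutation in scipy 1.17.1 under Python 3.11.15, and figures were drawn with matplotlib 3.10.9.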

Additional observations from a re-analysis of the deposited data

How the results depend on the processing

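Across 13 alternatives the calls of AUX1, LAX1, LAX2, ABCB1 and ABCB4 held in each, and none of the 7 carriers reversed. The LAX3 call was lost after quantile normalization (log2 difference 0.11), rescaling that leaves out organelle genes and the top 100 (0.062), median of ratios scaling (0.094), without the trend (0.18), with the replicate block (0.18) and with each library left out (0.17 to 0.19). ABCB19 passed after quantile normalization (-0.50), rescaling (-0.47), median of ratios scaling (-0.43), with the replicate block (-0.34) and without either 2-day library (leave-one-out range -0.53 to -0.15). The number of carriers not past the threshold was 2 without the trend and 1 to 2 with a library left out. Of the other transport genes, 22 did not pass without a filter, where more genes enter, and 6 to 15 with a library left out. BIG, not past the threshold in any alternative, reversed to 0.0202 without 2-day replicate 2 (leave-one-out range -0.20 to 0.0202). With a library left out, the lone sample of its group is assumed to vary like the others. Replicate numbers are shared by the groups, and deviations of same-numbered libraries correlated at -0.07. With 2 libraries per group this value cannot show whether same-numbered libraries belong together, which the labels do not say. With the replicate block 7101 genes were higher and 5283 lower, against 7485 and 5636 without it. Depth is unknown, so precision at low TPM cannot be stated.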
